A study of Mus musculus with 4 samples.

Results

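The miR-23, miR-27 and miR-24 clusters are a pair of paralogous miRNA loci of the mouse genome, called here the a cluster (Mir23a, Mir27a and Mir24-2) and the b cluster (Mir23b, Mir27b and Mir24-1). Their 10 members, chosen by exact name, were miR-23a-3p, miR-23b-3p, miR-27a-3p, miR-27b-3p, miR-24-3p, miR-24-1-5p, miR-24-2-5p, miR-27a-5p, miR-27b-5p and miR-23a-5p, out of 869 mature miRNA names with a value in any sample. The levels came from small RNA-seq of myotubes of C2C12, an immortalized mouse myoblast line that fuses into multinucleated myotubes when serum is reduced. All 4 samples were taken on day 6 of differentiation in high-glucose DMEM with horse serum. The 2 negative control samples (NC-1 and NC-2) received no guanidinoacetic acid (0 mM), and the 2 GAA samples (GAA-1 and GAA-2) received 20 mM guanidinoacetic acid, the direct precursor of creatine. All samples came from the same cell line in culture, and nothing states that the 2 samples of a group were separate cultures, so each p-value measures only the spread between these samples, which may be technical.

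A miRNA hairpin is cut from a longer primary transcript and then diced into a duplex, from which either the strand on the 5′ side (5p arm) or the strand on the 3′ side (3p arm) is kept to guide silencing of mRNAs that pair with its seed. Hairpins of a cluster share a primary transcript, so the partners of a cluster start from the same RNA, while the a and b copies are made from different loci. In muscle, miR-27 is known as a repressor of Pax3 and myostatin, miR-23a as a repressor of muscle ubiquitin ligases and of fast myosin heavy chains, and miR-24 as a miRNA that favours myoblast differentiation.

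The mature sequences show which members can be told apart and which carry the same seed, so they are given before the levels. They are the RefSeq sequences on GRCm38.p6, written 5′ to 3′ with the seed (bases 2 to 8) in capitals, and 9 of the 10 members had a match there; miR-23b-3p is named only.
miR-23a-3p: aUCACAUUgccagggauuucc
miR-27a-3p: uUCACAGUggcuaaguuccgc
miR-27b-3p: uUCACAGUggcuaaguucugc
miR-24-3p: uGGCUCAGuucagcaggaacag
miR-24-1-5p: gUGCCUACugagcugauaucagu
miR-24-2-5p: gUGCCUACugagcugaaacagu
miR-27a-5p: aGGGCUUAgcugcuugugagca
miR-27b-5p: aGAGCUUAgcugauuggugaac
miR-23a-5p: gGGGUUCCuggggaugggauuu

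The 3p arms of the miR-27 copies shared their seed and their first 18 bases and differed at 1 of 21 bases, C19U with miR-27a-3p as the reference and positions counted from the 5′ end. Their 5p arms differed at 8 of 22 bases, among them G3A inside the seed, so the 5p copies carried different seeds. The 5p arms of the miR-24 copies shared their seed and their first 16 bases and differed in length, 23 bases for miR-24-1-5p and 22 for miR-24-2-5p. The mature miR-24-3p sequence was the same in the hairpins of both clusters, so its single row cannot be split between the loci. The miR-24-3p row was also the only one of the 10 whose read number was not whole, at 8625.5 in NC-1, 10414.5 in NC-2 and 14209.5 in GAA-1 (tolerance 0.02 reads). A sum of whole counts over the hairpins would be whole. How reads that match both hairpins were counted is not given in the sources used here. The miR-24-3p level may be a mean over the hairpins or another division of their reads. Its size relative to partners and arms carries that doubt.

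The a cluster covered 404 bases of the plus strand, from the first base of Mir23a to the last of Mir24-2 (chr8:84208518-84208921, GRCm38.p6), with 79 bases between Mir23a and Mir27a and 56 between Mir27a and Mir24-2. In the GENCODE M21 annotation, only the last bases of Mir24-2 met an exon of the long noncoding RNA gene Gm26532, downstream on the same strand. Mir3074-2, an opposite-strand hairpin that reaches past both mature arms of Mir24-2, ended 13 bases from Gm26532. Mir23a and Mir27a lay over no other gene, 328 and 162 bases from Gm26532. The b cluster covered 792 bases of the plus strand (chr13:63300484-63301275), with 154 bases between Mir23b and Mir27b and 423 between Mir27b and Mir24-1. It lay within the protein-coding gene 2010111I01Rik on the same strand, Mir23b in an intron and Mir27b and Mir24-1 over exons of transcripts annotated as noncoding or as targets of nonsense-mediated decay, and opposite an intron of Fancc on the minus strand.

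**Figure D1:**
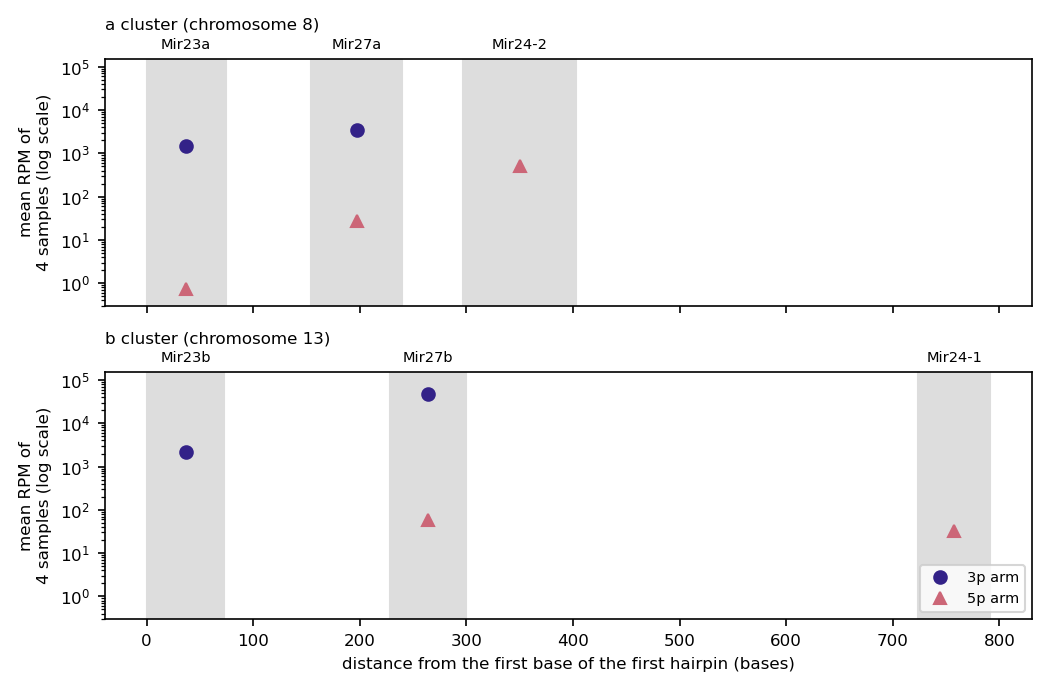
Mean level of the members along the a cluster (upper panel) and the b cluster (lower panel). The x axis is the distance in bases from the first base of the first hairpin, grey blocks are the hairpins, and each point is the mean over the 4 samples in RPM, reads scaled to the mappable reads of the library (log scale), at the centre of its hairpin; miR-24-3p, which comes from both clusters, is not drawn, and the highest point is miR-27b-3p at 47828 RPM.

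Levels are given as RPM, the reads of a miRNA in every 1000000 mappable reads, and as a share of all miRNA reads. The 4 libraries held 4732359 to 5657704 mappable reads and 1653803 to 3134241 miRNA reads, both worked out from the smallest step between RPM values, and 3 reads corresponded to 0.530 to 0.634 RPM. The miRNA reads made up 33.6% and 43.6% of the mappable reads in NC and 56.3% and 50.4% in GAA, so the 2 scales differ between the groups. All 7 muscle miRNAs listed as markers were detected in every sample and summed to 10480 to 13715 RPM in NC and 10533 to 11218 RPM in GAA. That sum rested largely on miR-486a-5p, at 4849 and 6615 RPM in NC and 6700 and 5640 RPM in GAA. Of the 7, 6 had a lower mean RPM in GAA and 5 had both GAA samples below both NC samples, among them miR-133a-3p at 3059 and 3787 RPM in NC and 2251 and 2409 RPM in GAA. The 13 markers of liver, neuron, blood, endothelium and epithelium summed to 41.0 to 53.5 RPM in NC and 60.3 to 88.4 RPM in GAA. Most of that was miR-9-5p, at 27.8 and 41.2 RPM in NC and 59.5 and 43.0 RPM in GAA. Of the 13, 8 to 13 were detected in a sample, and their part in the results was not tested.

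The members together took 13.9% and 10.6% of the miRNA reads in NC-1 and NC-2 and 12.1% and 13.8% in GAA-1 and GAA-2. The mean share was 12.3% ± 2.35 in NC and 12.98% ± 1.19 in GAA (SD, n = 2 each), and the groups overlapped. In RPM the members summed to 46797 and 46322 in NC and to 68312 and 69643 in GAA, where the groups did not overlap. miR-27b-3p alone made up 81.8% to 84.0% of the members' reads in the 4 samples. The 4 members made only from the b cluster (miR-23b-3p, miR-27b-3p, miR-27b-5p and miR-24-1-5p) held 86.2% to 87.2% of those reads. The 5 made only from the a cluster held 9.09% to 9.99%, and miR-24-3p, made from both, held 3.49% to 4.75%.

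**Figure D2:**
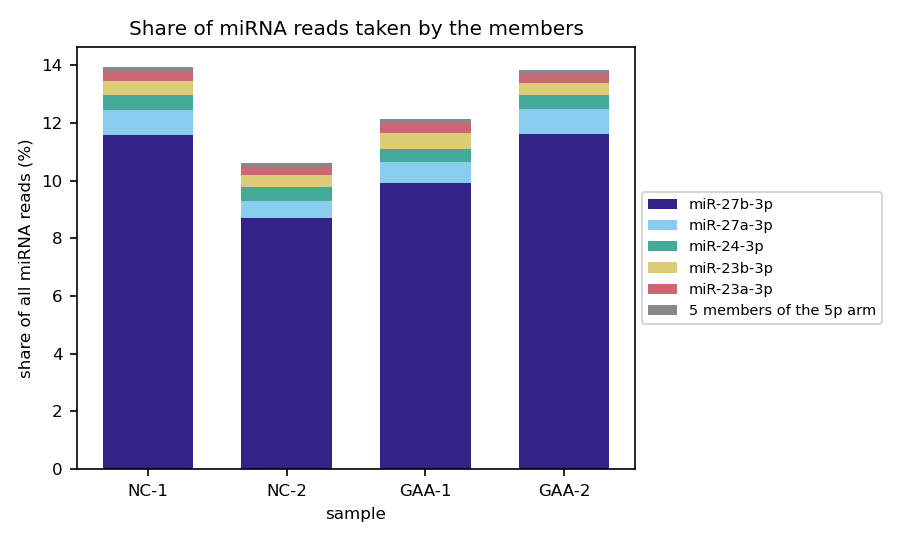
Share of all miRNA reads (%, y axis starting at 0) taken by the members in each of the 4 samples (x axis). Each bar is 1 sample and each colour a member, with the 5 members of the 5p arm summed; the bars reach 13.9% and 10.6% in NC-1 and NC-2 and 12.1% and 13.8% in GAA-1 and GAA-2, and miR-27b-3p fills most of each.

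miR-27b-3p, the guide strand of the b copy of miR-27, was at 38906 and 38058 RPM in NC-1 and NC-2 and at 55847 and 58502 RPM in GAA-1 and GAA-2. Both GAA samples were above both NC samples, and miR-27b-3p was at rank 3 among all miRNAs in 3 samples and at rank 4 in NC-2. As a share of the miRNA reads it was at 11.6% and 8.72% in the NC samples and at 9.92% and 11.6% in the GAA samples, and on that scale the groups overlapped. Its 95% Wilson interval in NC-2 ran from 8.68% to 8.76%, which covers counting error only. The difference between NC-1 and NC-2 was thus far wider than the counting error.

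miR-27a-3p, the a copy with the same seed, was at 2926 and 2483 RPM in NC and at 4160 and 4395 RPM in GAA, again without overlap. Its share was 0.871% and 0.569% in NC and 0.739% and 0.872% in GAA, and these values overlapped. In every sample the b copy was the higher of the 2.

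miR-23a-3p was at 1111 and 1219 RPM in NC and at 1989 and 1491 RPM in GAA. miR-23b-3p was at 1614 and 1772 RPM in NC and at 2967 and 2154 RPM in GAA. For both miR-23 guide strands both GAA samples were above both NC samples in RPM, and GAA-1 was the highest sample. As a share of miRNA reads, miR-23a-3p (0.331% and 0.279% in NC, 0.353% and 0.296% in GAA) and miR-23b-3p (0.481% and 0.406% in NC, 0.527% and 0.427% in GAA) overlapped between the groups.

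miR-24-3p, the guide strand that both clusters make, was at 1751 and 2201 RPM in NC and at 2553 and 2433 RPM in GAA. The groups did not overlap in RPM, and GAA was the higher. In share the order turned round, with 0.522% and 0.504% in NC above 0.453% and 0.483% in GAA. miR-24-3p thus lay higher in GAA per mappable read and lower in GAA per miRNA read.

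The 5p arms were lower than every guide strand. miR-24-2-5p, from the a cluster, was at 404 and 487 RPM in NC and at 639 and 534 RPM in GAA, with both GAA samples above both NC samples. miR-24-1-5p, from the b cluster, was at 27.0 and 35.5 RPM in NC and at 35.9 and 31.3 RPM in GAA, and its groups overlapped. Its read numbers were 133 and 168 in NC and 200 and 177 in GAA, and its share was 0.00804% and 0.00813% in NC against 0.00638% and 0.00621% in GAA. On the share scale both GAA samples of miR-24-1-5p were therefore below both NC samples. The 95% Wilson intervals of single samples overlapped, with a lowest limit of 0.00679% in NC and a highest limit of 0.00733% in GAA. Such overlap is not a test of the difference.

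miR-27b-5p was at 39.8 and 42.7 RPM in NC and at 84.6 and 68.6 RPM in GAA, from 196 to 471 reads. miR-27a-5p was at 16.0 and 23.03 RPM in NC and at 37.2 and 32.5 RPM in GAA, from 79 to 207 reads. For both miR-27 5p arms the GAA samples were above the NC samples on either scale. The share of miR-27b-5p was 0.0119% and 0.00978% in NC against 0.0150% and 0.0136% in GAA. That of miR-27a-5p was 0.00478% and 0.00528% in NC against 0.00660% and 0.00645% in GAA. The 95% Wilson intervals of single samples overlapped between the groups here too. NC reached 0.0136% and GAA started at 0.0123% for miR-27b-5p. For miR-27a-5p, NC reached 0.00637% and GAA started at 0.00559%.

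miR-23a-5p, the passenger strand of Mir23a, had 3 reads in each NC sample, and its GAA samples had 1 and 9. It was the only member under 10 reads in a sample, and a difference between the groups was not detectable at this depth. Other products of the same hairpins were as sparse. For miR-23b-5p the NC samples had 2 and 5 reads and the GAA samples 3 and 4, and of the miR-3074 hairpins, which lie on the opposite strand over Mir24-1 and Mir24-2, miR-3074-5p was seen with 4 and 3 reads in NC against 0 and 1 in GAA. The miR-3074-5p sequence read on the other strand shares a run of 20 bases with miR-24-3p, so strand alone separates them. miR-3074-1-3p had 0 to 2 reads, and miR-3074-2-3p had no row in any sample.

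**Figure D3:**
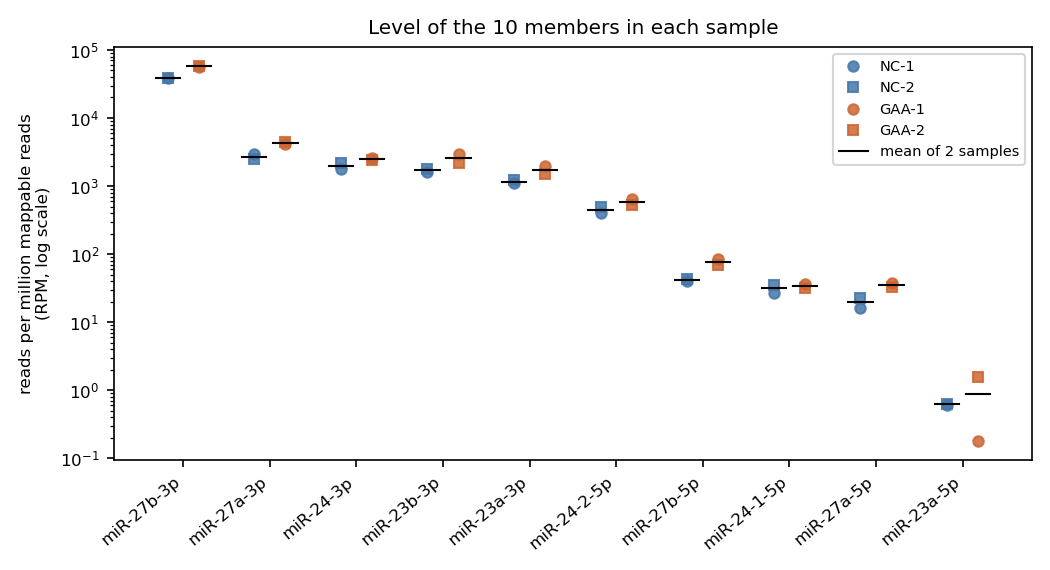
Level of the 10 members in each sample, in RPM on a log scale (y axis), with members on the x axis in the order of their NC means. Blue points are the 2 NC samples, orange points the 2 GAA samples, circles replicate 1, squares replicate 2 and bars the mean of 2; miR-27b-3p stands at 38058 to 58502 RPM, 4 guide strands between 1111 and 4395 RPM, and miR-23a-5p between 0.18 and 1.59 RPM.

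In NC the order of the mean levels was miR-27b-3p at 38482 ± 599.7 RPM, miR-27a-3p at 2705 ± 313, miR-24-3p at 1976 ± 318, miR-23b-3p at 1693 ± 112, miR-23a-3p at 1165 ± 75.9 and miR-24-2-5p at 446 ± 58.4 RPM (SD, n = 2). The lower 4 were miR-27b-5p, miR-24-1-5p, miR-27a-5p and miR-23a-5p. The samples of neighbours in this order did not overlap except those of miR-24-3p and miR-23b-3p. In GAA the order was the same but for the neighbours whose samples overlapped there, miR-23b-3p with miR-24-3p and miR-27a-5p with miR-24-1-5p. All these miRNAs are of nearly the same length, so no correction for length was needed, and whether some sequences are captured better than others was not tested.

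The comparison of GAA with NC asked which miRNAs moved when guanidinoacetic acid was present during differentiation. In the limma fit on log2(RPM + 1) over all 869 miRNAs, all 10 members had a higher mean in GAA, although miR-24-3p, miR-24-1-5p, miR-24-2-5p and miR-23a-5p had a lower one per miRNA read. None was called, where a call needed an adjusted p (FDR) under 0.01 and a log2 fold change above 1 in either direction. The fit called 0 of the 869 miRNAs, or 0%, with 152 at an unadjusted p under 0.05 and a lowest adjusted p of 0.205. The changes of the 5 guide strands were 0.57 for miR-27b-3p (SE 0.20, adjusted p = 0.276), 0.67 for miR-27a-3p (SE 0.18, adjusted p = 0.219), 0.58 for miR-23b-3p (SE 0.23, adjusted p = 0.290), 0.56 for miR-23a-3p (SE 0.21, adjusted p = 0.284) and 0.34 for miR-24-3p (SE 0.19, adjusted p = 0.411). These are 1.59-fold for miR-27a-3p, 1.49-fold for miR-27b-3p and 1.27-fold for miR-24-3p. Of the 5p arms, miR-27b-5p stood at 0.87 (SE 0.19, adjusted p = 0.205), miR-27a-5p at 0.82 (SE 0.24, adjusted p = 0.254), miR-24-2-5p at 0.40 (SE 0.19, adjusted p = 0.361) and miR-24-1-5p at 0.11 (SE 0.22, adjusted p = 0.748).

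The same direction was common to most miRNAs. In RPM both GAA samples lay above both NC samples for 8 of the 10 members, against 38.6% of the 869 miRNAs and 64.4% of the 323 that had at least 10 reads in every sample, a limit that 9 members passed. The median change of the 10 members was 0.57 on the log2(RPM + 1) scale and that of the 323 miRNAs was 0.49, and 91.6% of those 323 had a positive change. miR-27b-5p and miR-27a-5p stood above that median by more than their standard errors, miR-24-1-5p stood below it by more than its own, and the guide strands were within about 1 standard error of it.

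When the same fit was run on reads scaled to the total of miRNA reads in place of mappable reads, the median of the 323 miRNAs moved to 0.02 and that of the members to 0.09. The guide strands then changed by 0.09 (miR-27b-3p, SE 0.27), 0.19 (miR-27a-3p, SE 0.24), 0.10 (miR-23b-3p, SE 0.21), 0.09 (miR-23a-3p, SE 0.20) and -0.13 (miR-24-3p, SE 0.19), with adjusted p between 0.781 and 0.908. The 5p arms of miR-27 kept the most positive changes, 0.41 for miR-27b-5p (SE 0.22, adjusted p = 0.720) and 0.37 for miR-27a-5p (SE 0.23, adjusted p = 0.777), and miR-24-1-5p the most negative, -0.36 (SE 0.22, adjusted p = 0.777). miR-24-2-5p changed by -0.08 (SE 0.18). No member was called on this scale. The 1 call among 869 (0.115%) was the cardiac and slow muscle miRNA miR-208b-3p, at -3.30, and 70 miRNAs had an unadjusted p under 0.05. That call was lost with a pseudocount of 0.1, without the trend and with any sample left out.

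By samples, 2 members lay above NC in both GAA samples on the share scale (miR-27a-5p and miR-27b-5p), against 18% of all miRNAs and 22.9% of those with at least 10 reads in every sample. A further 2 lay below NC in both GAA samples (miR-24-3p and miR-24-1-5p), against 13.5% and 19.8%. The other 6 overlapped. Neither count of members was far from these shares of all miRNAs.

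**Figure D4:**
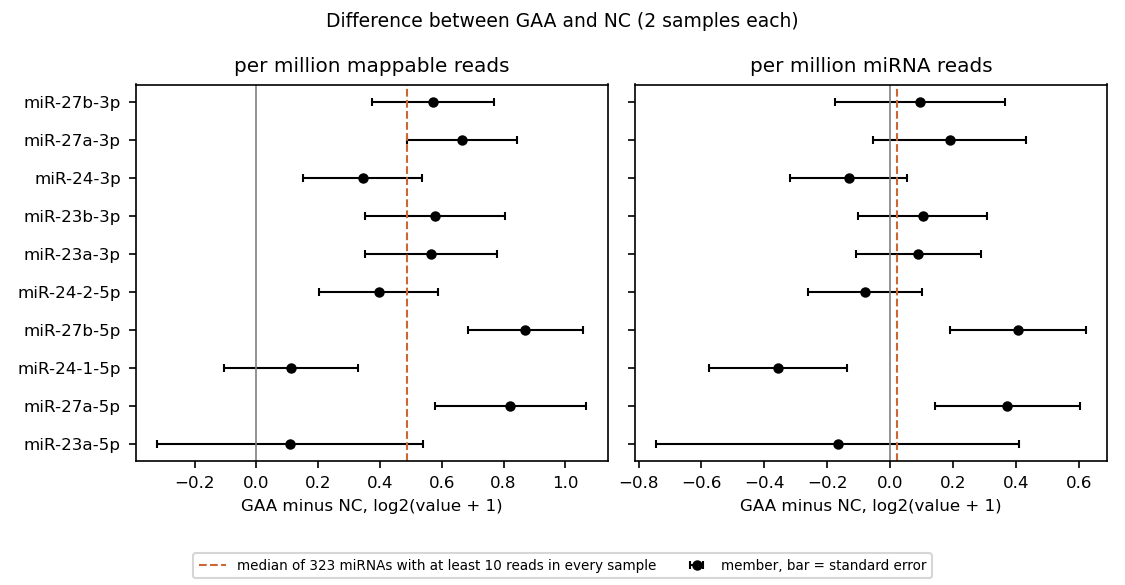
Difference between GAA and NC for each member on the log2(value + 1) scale (x axis), from RPM (left) and from reads scaled to the miRNA total (right). Points are the fitted differences and bars 1 standard error with 2 samples a group; the dashed line is the median of the 323 miRNAs that reached 10 reads in every sample, 0.49 on the left and 0.02 on the right, and most members lie near it.

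Ratios within a sample do not depend on the divisor. The ratio of the copies was steadiest for miR-23. There were 1.45, 1.45, 1.49 and 1.44 reads of miR-23b-3p for each read of miR-23a-3p in the 2 NC samples and then the 2 GAA samples, and the log2 ratio had an SD of 0.02 over the 4 samples. Of 33 other pairs of names that differ only in the letter a or b, 4 held the same value in both rows of the pair in every sample (within 0.001 RPM) and have no spread to compare. None of the other 29 had a smaller SD, and their SDs had a median of 0.23 and a lowest value of 0.04. These pairs needed only 10 reads in every sample, while the miR-23 guide strands had 5473 to 16515, so depth was not matched. How reads that match both miR-23 copies were counted is not given in the sources used here. The b copy supplied 59.1% to 59.9% of the miR-23 guide reads.

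There were 13.3, 15.3, 13.4 and 13.3 reads of miR-27b-3p for each read of miR-27a-3p in that order of samples, so that NC-2 alone stood apart (SD of the log2 ratio 0.10). The b copy supplied 93.0% to 93.9% of the miR-27 guide reads. Between their 5p arms the ratio was smaller, at 2.48, 1.85, 2.28 and 2.11 reads of miR-27b-5p for each read of miR-27a-5p. The copy ratio of miR-27 was thus several times larger on the 3p arm than on the 5p arm in every sample. The 3p copies differ at only 1 of 21 bases. How reads that match both miR-27 copies were counted is not given in the sources used here, so the size of the 3p ratio carries that doubt.

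For miR-24, whose guide strand cannot be assigned to a locus, the 5p arms tell the copies apart, and here the a cluster was the higher. There were 15.0 and 13.7 reads of miR-24-2-5p for each read of miR-24-1-5p in NC and 17.8 and 17.1 in GAA. The GAA samples did not overlap the NC samples, and the log2 ratio of miR-24-1-5p to miR-24-2-5p was lower in GAA by 0.28, as the means of -3.84 in NC and -4.12 in GAA show (exact two-sided permutation p = 0.33). That is the smallest p that 2 samples against 2 can reach, so none of the 12 ratios tested could pass 0.05. Among the 33 other copy pairs, 18.2% were below NC in both GAA samples (20.7% of the 29 whose rows differ), and 10 had a larger change in either direction. For the other copy ratios the GAA mean differed from the NC mean by 0.01 (miR-23 guide strands), -0.09 (miR-27 guide strands) and 0.03 (miR-27 5p arms) on the log2 scale, and in each case the groups overlapped (exact two-sided permutation p = 1).

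The ratio between partners of a cluster varied more between samples than the ratio between copies of the guide strands. In the b cluster there were 24.1, 21.5, 18.8 and 27.2 reads of miR-27b-3p for each read of miR-23b-3p, again NC before GAA. In the a cluster there were 2.63, 2.04, 2.09 and 2.95 reads of miR-27a-3p for each read of miR-23a-3p. In both clusters NC-1 and GAA-2 were above the mean of the ratio and NC-2 and GAA-1 below it, so the partner ratios differed between samples of the same group rather than between the groups. The log2 ratios had SDs of 0.23 and 0.26 over the 4 samples, and GAA differed from NC by -0.01 in the b cluster (exact two-sided permutation p = 1) and 0.10 in the a cluster (p = 0.667). The 2 partner ratios are tied through the copy ratios of miR-23 and miR-27, which varied less. Their shared order of samples is therefore not 2 separate observations.

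Both clusters make miR-24-3p, so its reads were set against the summed copies of each partner. There were 1.56, 1.36, 1.94 and 1.498 reads of miR-23a-3p and miR-23b-3p for each read of miR-24-3p, and 23.9, 18.4, 23.5 and 25.9 reads of miR-27a-3p and miR-27b-3p. The log2 ratio of miR-24-3p to either sum was lower in GAA by 0.23, with overlap between the groups and an exact two-sided permutation p of 0.667 for each. With each sample left out the difference ran from -0.42 (without GAA-2) to -0.043 (without GAA-1) for the miR-23 sum, and from -0.42 (without NC-1) to -0.046 (without NC-2) for the miR-27 sum. In every sample the miR-27 copies had the most reads of the 3 partners.

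The arms of the hairpins were kept in very unequal amounts. For each read of miR-27b-5p there were 978, 892, 660 and 853 reads of miR-27b-3p, and for each read of miR-27a-5p there were 182, 108, 112 and 135 reads of miR-27a-3p. For each read of the miR-24 5p arms together there were only 4.06, 4.21, 3.78 and 4.30 reads of miR-24-3p. The miR-24 arm ratio had an SD of 0.08 over the 4 samples on the log2 scale, and 3 of 83 other arm pairs had a smaller SD (median 0.35). Those pairs needed only 10 reads in every sample, so their depth was not matched to that of miR-24. The miR-23a arms gave 937 to 11070 reads of the 3p arm for each read of the 5p arm, and that range rests on 1 to 9 reads.

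The 5p arm of miR-27b was higher relative to its 3p arm in both GAA samples than in both NC samples, by 0.32 on the log2 scale (means of -9.87 in NC and -9.55 in GAA, exact two-sided permutation p = 0.33). It was 0.13 without GAA-1 and 0.50 without GAA-2. Of the 83 other arm pairs, 8.43% lay above NC in both GAA samples, 21 pairs lay below NC in both, and 30 had a larger change in either direction. All pairs were taken as 5p over 3p, whichever arm had more reads. The 8.43% is therefore not the share of pairs whose arm with fewer reads rose, which was not counted. For miR-27a the same ratio differed by 0.19 with overlap between the groups, and for miR-24 by 0.04, also with overlap (exact two-sided permutation p = 1 for both). The difference between the miR-27b and miR-27a changes was not tested.

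**Figure D5:**
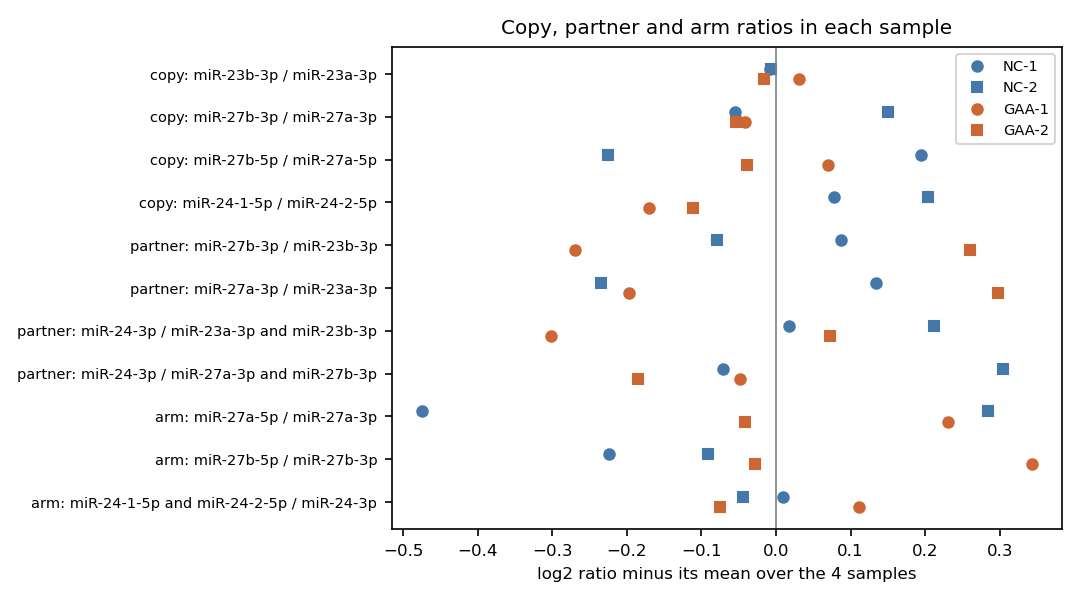
Copy, partner and arm ratios in each sample, as the log2 ratio minus its mean over the 4 samples (x axis, ratios on the y axis). Blue is NC, orange GAA, circles replicate 1 and squares replicate 2; the points of miR-23b-3p over miR-23a-3p lie closest together (SD 0.02), the 2 partner ratios of miR-27 over miR-23 have the same samples on each side, and miR-24-1-5p over miR-24-2-5p has both GAA samples on the left.

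Among 113 miRNAs with at least 100 RPM in every sample, the non-members whose log2(RPM + 1), centred on its mean, followed the mean of the 5 guide strands most closely were miR-31-5p, miR-26a-5p and miR-872-5p. Their root-mean-square differences from it over the 4 samples were 0.03 for each, against a median of 0.23 over the candidates. The guide strands themselves stood at 0.09 (miR-27b-3p and miR-23a-3p), 0.11 (miR-23b-3p), 0.14 (miR-24-3p) and 0.15 (miR-27a-3p). This likeness is a description over 4 samples, in which all miRNAs share the library and the divisor.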

How the data were processed

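Small RNA (15 to 35 nt per the labels) from C2C12 myotubes was sequenced in 4 libraries, 2 NC and 2 GAA. Per the study's methods, reads were mapped with miRDeep2 to GRCm38.p5 and searched against miRBase 21. The deposited values, 1 table per sample, are on a log2 scale, log2(RPM + 1), with RPM made by the authors by dividing read counts by all mappable reads; a miRNA with no row was taken as 0 reads. Here RPM was recovered, read numbers were worked out from the smallest RPM step, and shares were taken over summed miRNA RPM. 49 of 869 miRNAs did not give whole reads (tolerance 0.02). Because the unit is log2, limma 3.58.1 (R 4.3.3; pseudocount 1, trend, Benjamini-Hochberg over all 869, no filter) was used although the authors used edgeR, with their thresholds; simulated data tested the script. Ratios were compared with exact permutation tests (scipy 1.17.1). Replicates differed by far more than counting noise (chi-square per degree of freedom 166 for NC and 159 for GAA over 323 miRNAs). Intervals are 95% Wilson. Named miRNAs were the members, other products of their hairpins, the 5 most abundant, listed markers and the 3 closest profiles. Members and lists were chosen with earlier results of these data known. Alternatives covered the divisor, pseudocount, filters, trend, threshold, replicate block and each sample left out. Genome positions are from RefSeq (GRCm38.p6) and were the same in GENCODE M21.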

Additional observations from a re-analysis of the deposited data

How the results depend on the processing

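No member was called under any alternative of either fit. The count of called miRNAs in RPM (0) became 1 with 4 other divisors: the miRNA reads, the same without the 5 miRNAs of highest level, the same without the 10 members, and median-of-ratios size factors. The count on the share scale (1) became 0 with a pseudocount of 0.1, with at least 10 reads in every sample (which removes the called miR-208b-3p, at 8 reads in GAA-2), without the trend, and with any sample left out (0 to 0; a lone sample is then assumed to vary like the other group), and 6 with the replicate block. The replicate numbers share only a number (correlation of deviations -0.149). With the pairing crossed, chosen after seeing the data, the replicate block gave 6 calls in share and 0 in RPM. Under those 4 divisors in turn, miR-24-3p turned to -0.13, -0.046, -0.12 and -0.19, miR-24-1-5p to -0.36, -0.27, -0.35 and -0.40, and miR-23a-5p to -0.17, -0.25, -0.18 and -0.068 (-0.069 with a pseudocount of 0.1). miR-24-2-5p turned to -0.080 per miRNA read, -0.069 without the members and -0.13 with size factors.

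Leaving out each sample turned the direction of several small differences. On the share scale the ranges were -0.039 to 0.22 for miR-23a-3p, -0.048 to 0.25 for miR-23b-3p, -0.12 to 0.50 for miR-27a-3p, -0.11 to 0.30 for miR-27b-3p and -0.99 to 0.66 for miR-23a-5p. In RPM they were -0.080 to 0.30 for miR-24-1-5p and -0.46 to 0.68 for miR-23a-5p. For log2 ratios they were -0.0090 to 0.038 (miR-23b-3p over miR-23a-3p), -0.20 to 0.0078 (miR-27b-3p over miR-27a-3p), -0.18 to 0.24 (miR-27b-5p over miR-27a-5p), -0.27 to 0.26 (miR-27b-3p over miR-23b-3p), -0.15 to 0.35 (miR-27a-3p over miR-23a-3p), and, 5p over 3p, -0.19 to 0.57 for miR-27a, -0.058 to 0.13 for miR-24 and -2.56 to 0.998 for miR-23a. The cause was not tested. The RPM changes of the other members kept their direction, as did the log2 ratios of miR-24-1-5p to miR-24-2-5p (-0.34 to -0.22), of the miR-27b arms (0.13 to 0.50) and of miR-24-3p to the miR-23 sum (-0.42 to -0.043) and the miR-27 sum (-0.42 to -0.046). Depth limited miR-23a-5p most. The counting intervals of single samples overlapped in share between the groups for miR-24-1-5p, miR-27a-5p and miR-27b-5p. That overlap is not a test of a difference and does not show a limit of depth.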
